A study of Mus musculus with 16 samples.

Results

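The genes described here are the receptors for the constant part of antibodies and the signaling chains behind them in the mouse neocortex, namely *Fcgr1*, *Fcgr2b*, *Fcgr3*, *Fcgr4*, *Fcer1g*, *Tyrobp*, *Trem2* and *Syk*. They were chosen by name and function, with earlier results of these data known, and all 8 were found among the 20130 genes with a value on every array. The study removed cortex of the left hemisphere by suction and profiled the unlesioned right neocortex, rostral from bregma, to compare surgery in neonatal and adult C57BL/6J mice. Neonatal brain hemisuction (NBH) was done at postnatal day 7 (P7), and the pools were taken 1 week later at P14 and 4 weeks later at P35. Adult brain hemisuction (ABH) was followed by pools at 1 week, labeled as 11 weeks of age, and at 4 weeks, labeled as 15 weeks of age. The controls were mice of the same strain aged P7, P14, P35 and 10 weeks, labeled only as control, and a sham operation is not mentioned in the sources used here.

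According to the methods every group was 1 RNA pool of 4 males, so no difference below has a replicate check and no p-value was computed. Each of the 8 pools was hybridized alone to 1 array labeled with Cy3 and to 1 labeled with Cy5, which gave 16 arrays. The spread given below (SD, n = 2) is that between the dyes and is technical. Median spot intensities were between 192.5 and 253 over a median local background of 59 to 72, and the software marked 60.2% to 72.2% of spots as well above it. All control pools lay in the first row of each slide and all operated pools in the second, so slide position and surgery cannot be told apart. The 8 neuron markers were measured in all pools, and their summed level was between 208 and 314 times the reference signal of the array, with 0 of 8 called in ABH 1 week (*Snap25* and *Syt1* were saturated).

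Fc receptors bind the stem of antibodies that have coated a target. The activating members (*Fcgr1*, *Fcgr3*, *Fcgr4*) have no signaling motif of their own and pair with *Fcer1g*, the common gamma chain, which carries an immunoreceptor tyrosine-based activation motif (ITAM). *Tyrobp* is a related ITAM adaptor that serves *Trem2*, a receptor for lipids and apolipoproteins, and many other receptors of myeloid cells. Phosphorylated ITAMs recruit the kinase *Syk*, whereas *Fcgr2b* carries an inhibitory motif and restrains the same cells. In the brain these genes are known mainly from microglia and macrophages.

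Promoter windows are shown because the genes moved together in the arrays. RefSeq windows (GRCm38.p6) from 250 bases before to 50 bases after the annotated start were found for 7 of the 8 genes, and *Tyrobp* was not among them. They were searched on both strands for GAGGAA, the purine-rich core known from sites of the myeloid transcription factor PU.1 (*Spi1*), which reads TTCCTC on the other strand. The hexamer stood in 6 of the 9 windows of these 7 genes, 2 of them overlapping windows of *Fcgr3* with the same letters, and in 28.3% of all 32851 windows of this length. The 28.3% is a share of windows, and no share of genes is given here. By gene, with 2 windows each for *Fcgr3* and *Syk*, 5 of the 7 held the hexamer. In *Fcgr1* it began 55 bases before the start, in *Fcgr3* 6 bases before it in the first of 2 overlapping windows, in *Fcgr4* 22 bases and in *Trem2* 40 bases before it, each time as TTCCTC. One of 2 *Syk* windows held it as GAGGAA, 9 bases before the start, and the windows of *Fcgr2b* and *Fcer1g* did not hold it. These matches describe letters and are not evidence of binding. The windows of the 4 genes with TTCCTC and, for comparison, that of *Fcer1g* follow, 5′ to 3′ along the gene, with the hexamer in capitals.
Fcgr1 (chr3:96293920-96294219, minus strand): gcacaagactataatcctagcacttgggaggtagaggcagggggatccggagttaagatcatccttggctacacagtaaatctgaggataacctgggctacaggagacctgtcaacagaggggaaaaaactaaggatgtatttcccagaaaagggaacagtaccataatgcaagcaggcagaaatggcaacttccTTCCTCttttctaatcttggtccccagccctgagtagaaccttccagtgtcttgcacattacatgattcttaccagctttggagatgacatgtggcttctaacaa
Fcgr3 (chr1:171059354-171059653, minus strand): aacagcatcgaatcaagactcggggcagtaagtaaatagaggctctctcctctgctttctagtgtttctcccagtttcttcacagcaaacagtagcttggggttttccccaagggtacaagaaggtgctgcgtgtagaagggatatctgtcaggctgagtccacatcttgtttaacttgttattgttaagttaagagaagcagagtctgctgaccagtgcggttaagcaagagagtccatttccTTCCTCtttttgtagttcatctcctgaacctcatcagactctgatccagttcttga
Fcgr4 (chr1:171018676-171018975, plus strand): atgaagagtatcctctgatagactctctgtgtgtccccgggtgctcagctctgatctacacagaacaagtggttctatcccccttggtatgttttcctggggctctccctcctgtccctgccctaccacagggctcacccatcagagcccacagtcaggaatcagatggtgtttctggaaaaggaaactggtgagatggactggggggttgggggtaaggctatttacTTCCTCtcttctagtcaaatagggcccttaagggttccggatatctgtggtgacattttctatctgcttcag
Trem2 (chr17:48346151-48346450, plus strand): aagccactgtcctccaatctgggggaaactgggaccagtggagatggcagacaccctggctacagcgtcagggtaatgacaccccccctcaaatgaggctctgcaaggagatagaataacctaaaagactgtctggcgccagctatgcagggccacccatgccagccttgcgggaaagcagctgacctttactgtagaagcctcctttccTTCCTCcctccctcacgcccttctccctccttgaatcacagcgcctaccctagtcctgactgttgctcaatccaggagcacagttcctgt
Fcer1g (chr1:171234300-171234599, minus strand): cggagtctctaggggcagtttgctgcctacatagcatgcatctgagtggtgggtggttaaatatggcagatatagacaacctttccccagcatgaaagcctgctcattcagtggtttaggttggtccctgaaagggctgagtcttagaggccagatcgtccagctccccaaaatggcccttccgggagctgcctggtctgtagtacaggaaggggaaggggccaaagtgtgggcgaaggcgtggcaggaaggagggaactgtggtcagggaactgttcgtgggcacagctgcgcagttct

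Each gene had 1 probe on the array, well above background on all 16 arrays and saturated on none. Levels below are the background-corrected log2 signal relative to the 75th percentile of the same array, so that 0 is the level of that percentile. A probe's level depends on its own hybridization, and levels are therefore compared between pools and not between genes. Raw intensities were lowest for *Fcgr4* (180 to 734) and *Fcgr2b* (182 to 808), and highest for *Tyrobp* (3750 to 26700), over a local background of 56 to 78 at these probes. *Fcgr2b* and *Fcgr3* have closely similar transcripts, and cross-hybridization between them was not tested. A call required both dyes to pass the same limit, namely a signal of 1.5-fold the control or more (higher) or of 0.75-fold or less (lower).

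One week after adult hemisuction all 8 genes were higher than in the 10 weeks control, between 2.23-fold (*Fcgr1*) and 4.87-fold (*Tyrobp*). In that comparison 4.5% of the 16316 genes compared were called higher and 6.29% lower. The median log2 change was 1.58 over the 8 genes and -0.07 over all genes. In the other comparisons with controls, none of the 8 was called in either direction. In NBH 1 week 0.407% of genes were called higher and 0.414% lower, in NBH 4 weeks 0.189% and 0.762%, and in ABH 4 weeks 0.448% and 0.184%. The tissue was bulk neocortex, where more cells of a type and more RNA per cell cannot be told apart.

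**Figure D1:**
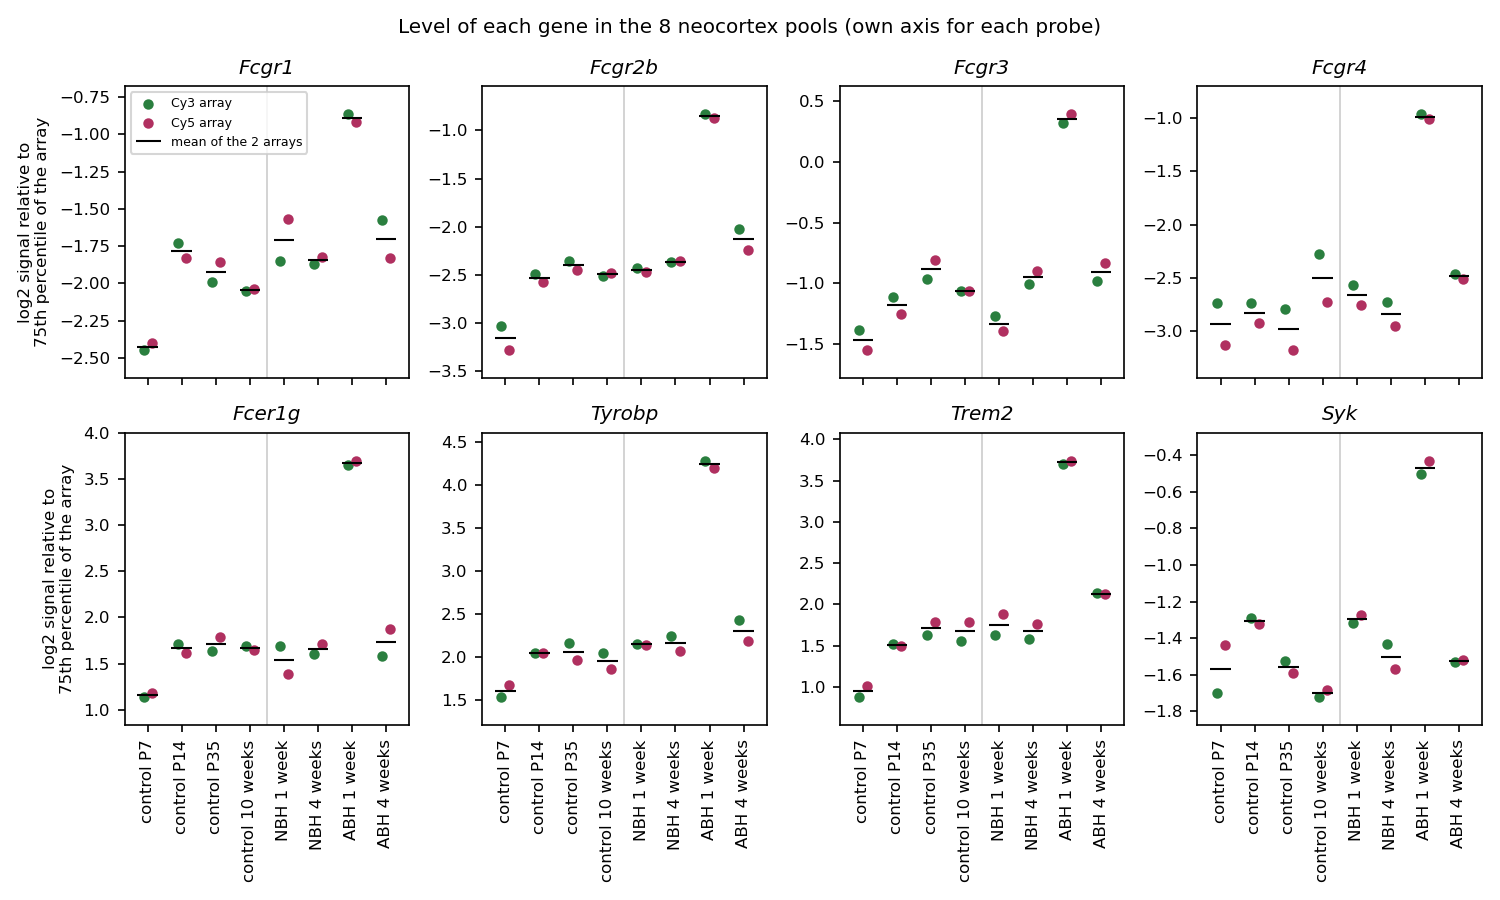
Log2 signal of each gene relative to the 75th percentile of the array (y axis, a separate range for each probe) in the 8 pools (x axis); points are the Cy3 and Cy5 arrays and bars their mean. Both ABH 1 week arrays lie above the other 14 arrays in all 8 panels, by between 0.65 (*Fcgr1*) and 1.77 (*Fcer1g* and *Tyrobp*).

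*Fcgr1* encodes the high-affinity receptor for IgG. Its control levels (Cy3 and Cy5) were -2.45 and -2.40 at P7, -1.73 and -1.83 at P14, -1.99 and -1.86 at P35, and -2.05 and -2.04 at 10 weeks. After surgery they were -1.85 and -1.57 in NBH 1 week, -1.87 and -1.82 in NBH 4 weeks, -0.87 and -0.91 in ABH 1 week, and -1.57 and -1.83 in ABH 4 weeks. The ABH 1 week arrays stood apart, and the other operated pools overlapped the range of the controls or lay just above it. The change in ABH 1 week was 1.16 ± 0.04 (SD, n = 2), the smallest of the 8. In NBH 1 week the dyes disagreed in direction, with -0.12 for Cy3 and 0.27 for Cy5.

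*Fcgr3*, the low-affinity activating receptor for IgG, had control levels of -1.38 and -1.55 at P7, -1.11 and -1.25 at P14, -0.97 and -0.80 at P35, and -1.06 and -1.06 at 10 weeks. It stood at -1.27 and -1.40 in NBH 1 week, -1.01 and -0.90 in NBH 4 weeks, 0.32 and 0.39 in ABH 1 week, and -0.98 and -0.84 in ABH 4 weeks. The ABH 1 week level was 2.67-fold that of the control (1.42 ± 0.06). In NBH 1 week *Fcgr3* was below its control with both dyes, by -0.16 and -0.14, and the value stayed below 0 in all 12 alternative settings while never reaching the limit for a call.

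*Fcgr4* encodes the activating receptor for IgG2a and IgG2b of mice, and was the dimmest of the probes. Its levels in the controls were -2.73 and -3.13 at P7, -2.73 and -2.93 at P14, -2.79 and -3.18 at P35, and -2.27 and -2.73 at 10 weeks. In the operated pools they were -2.56 and -2.75 in NBH 1 week, -2.72 and -2.95 in NBH 4 weeks, -0.96 and -1.01 in ABH 1 week, and -2.46 and -2.51 in ABH 4 weeks. Cy5 gave the lower value in all 8 pools. The change in ABH 1 week, 1.52 ± 0.29, had the widest dye spread of the 8 (1.31 with Cy3 and 1.72 with Cy5), and both values passed the limit. At 4 weeks the dyes had opposite signs (-0.19 and 0.22).

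*Fcgr2b*, the inhibitory receptor, was measured by 10 spots per array. Its levels were -3.03 and -3.28 at P7, -2.49 and -2.57 at P14, -2.35 and -2.45 at P35, and -2.51 and -2.48 at 10 weeks. After surgery they were -2.43 and -2.47 in NBH 1 week, -2.37 and -2.36 in NBH 4 weeks, -0.83 and -0.87 in ABH 1 week, and -2.02 and -2.24 in ABH 4 weeks. The inhibitory gene was thus raised in the same pool as the activating ones, by 1.64 ± 0.05 or 3.13-fold. The log2 changes of the 3 activating receptors lay below this value, between 1.16 and 1.52, although *Fcgr4* reached 1.72 with Cy5. Against the P35 control *Fcgr4* changed more (2.00) than *Fcgr2b* (1.55), so this order depends on the control pool.

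*Fcer1g*, the chain shared by the activating Fc receptors, had control levels of 1.14 and 1.18 at P7, 1.72 and 1.62 at P14, 1.64 and 1.78 at P35, and 1.69 and 1.64 at 10 weeks. It reached 1.69 and 1.38 in NBH 1 week, 1.60 and 1.71 in NBH 4 weeks, 3.65 and 3.69 in ABH 1 week, and 1.58 and 1.88 in ABH 4 weeks. In ABH 1 week the chain was raised 4.01-fold (2.00 ± 0.07), and the highest array of the other pools was at 1.88. At 4 weeks the dyes gave -0.11 and 0.24.

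*Tyrobp* showed the largest change of the 8. Its control levels were 1.54 and 1.68 at P7, 2.06 and 2.05 at P14, 2.16 and 1.97 at P35, and 2.05 and 1.86 at 10 weeks. In the operated pools they were 2.16 and 2.14 in NBH 1 week, 2.25 and 2.07 in NBH 4 weeks, 4.28 and 4.20 in ABH 1 week, and 2.43 and 2.19 in ABH 4 weeks. The ABH 1 week change was 2.28 ± 0.08, and 47 of the 16316 genes compared had a larger one. At 4 weeks *Tyrobp* was above its control with both dyes (0.38 and 0.33), under the limit for a call.

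*Trem2* signals through *Tyrobp*. Its levels were 0.88 and 1.01 at P7, 1.53 and 1.497 at P14, 1.63 and 1.79 at P35, and 1.56 and 1.79 at 10 weeks in the controls. It stood at 1.63 and 1.88 in NBH 1 week, 1.58 and 1.77 in NBH 4 weeks, 3.70 and 3.74 in ABH 1 week, and 2.13 and 2.12 in ABH 4 weeks. The change in ABH 1 week was 4.12-fold (2.04 ± 0.14), close to that of its adaptor. In ABH 4 weeks *Trem2* had the largest change of the 8 genes, 0.45 ± 0.17 (0.57 with Cy3 and 0.33 with Cy5), but was not called. Both arrays of this pool lay above all control and NBH arrays for *Trem2*, and also for *Fcgr2b*. No share over all genes is given here for this separation.

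*Syk* encodes the kinase that docks on phosphorylated ITAMs. It had levels of -1.70 and -1.44 at P7, -1.29 and -1.33 at P14, -1.53 and -1.59 at P35, and -1.72 and -1.68 at 10 weeks. After surgery it was at -1.32 and -1.27 in NBH 1 week, -1.43 and -1.57 in NBH 4 weeks, -0.50 and -0.43 in ABH 1 week, and -1.53 and -1.52 in ABH 4 weeks. The kinase rose 2.35-fold in ABH 1 week (1.23 ± 0.03). Its lowest pool was the 10 weeks control, to which the ABH pools were compared. Against the P35 control the ABH 1 week change was 1.09.

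**Figure D2:**
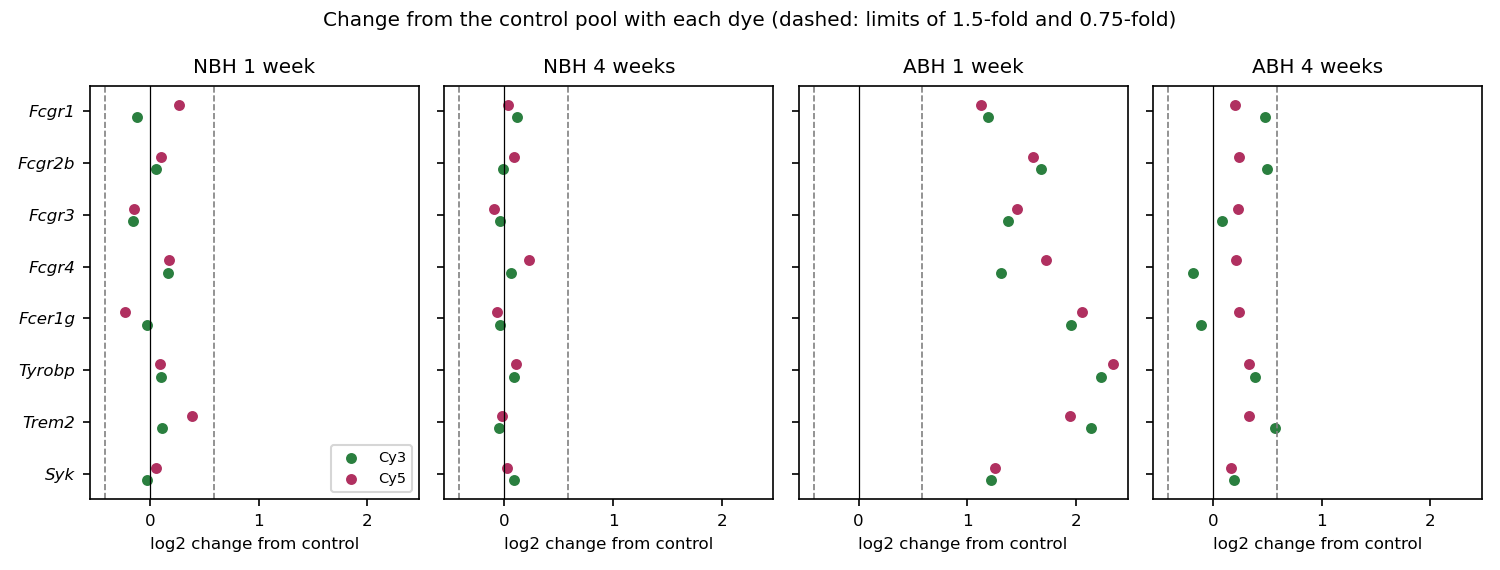
Log2 change of each gene from its control pool with each dye (x axis), in NBH 1 week (control P14), NBH 4 weeks (control P35), ABH 1 week and ABH 4 weeks (both control 10 weeks); dashed lines mark the limits of 1.5-fold and 0.75-fold. All 16 values of ABH 1 week lie beyond the upper limit, and in the other panels both dyes of a gene never pass a limit together.

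Both ABH 1 week arrays were above the other 14 arrays for all 8 genes. This separation was found for 5.66% of the 16757 genes that both arrays of any pool detected well above background. Among the remaining pools the order was less clear. Ordering all 8 pools of a gene by level gave 7 steps between neighboring pools. The step below ABH 1 week exceeded the spread between dyes for every gene. Including that step, the number larger than the spread was 2 for *Fcer1g* and *Syk*, 3 for *Fcgr4* and *Tyrobp*, 4 for *Fcgr1*, *Fcgr2b* and *Trem2*, and 7 for *Fcgr3*. For *Fcgr3*, however, the smallest of these steps was 0.02, between control P35 and ABH 4 weeks.

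The neonatal operation left the 8 genes near their controls. Their mean log2 changes were between -0.15 (*Fcgr3*) and 0.25 (*Trem2*) in NBH 1 week, with a median of 0.08 beside 0.06 over all genes. In NBH 4 weeks they were between -0.07 (*Fcgr3*) and 0.15 (*Fcgr4*), with a median of 0.05 beside 0.04. Directions this small changed with the setting. In the authors' unscaled value table the median in NBH 4 weeks was -0.205 over all genes and -0.22 over the 8. In NBH 1 week only *Trem2* kept a value above 0, and only *Fcgr3* and *Fcer1g* a value below 0, in all 12 alternative settings. In NBH 4 weeks only *Fcer1g* and *Trem2* kept their direction, below 0, in all 13.

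Between 1 and 4 weeks after adult surgery all 8 genes fell. Comparing the ABH 4 weeks pool with the ABH 1 week pool directly, a comparison added after the values were seen, 8 of 8 were called lower, where 4.9% of 16185 genes were. The log2 differences were between -0.81 (*Fcgr1*) and -1.94 (*Fcer1g*), with a median of -1.39 beside 0.13 over all genes. The share of the 1 week change left at 4 weeks was 29.7% for *Fcgr1*, 22.3% for *Fcgr2b*, 22.2% for *Trem2*, 15.5% for *Tyrobp*, 14.2% for *Syk*, 10.9% for *Fcgr3*, 3.19% for *Fcer1g* and 1.02% for *Fcgr4*. With Cy3 and Cy5 alone it was 40.5% and 18.3% for *Fcgr1*, 29.3% and 15.0% for *Fcgr2b*, 5.92% and 15.6% for *Fcgr3*, and 26.8% and 17.2% for *Trem2*. For *Fcer1g* (-5.58% and 11.5%) and *Fcgr4* (-14.1% and 12.6%) the dyes had opposite signs, so these shares are uncertain, while *Tyrobp* and *Syk* differed less between dyes. Both pools are compared with the same 10 weeks control, so its error enters both changes. The residual values at 4 weeks, from 0.02 (*Fcgr4*) to 0.45 (*Trem2*), had a median of 0.26 beside 0.07 over all genes. Those of *Fcgr1*, *Fcgr2b*, *Tyrobp*, *Trem2* and *Syk* were above 0 in all 13 alternative settings, which reuse the same arrays. No share of all genes is given for this. The residual values exceeded those of 97.7% of all genes compared for *Trem2*, 94.6% for *Fcgr2b*, 94.1% for *Tyrobp* and 93.3% for *Fcgr1*. The share was 72% for *Syk*, 68% for *Fcgr3*, 48.2% for *Fcer1g* and 39.1% for *Fcgr4*.

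In the unoperated neocortex the genes were also lower at P7 than at P14. All 8 were above their P7 level at P14 with both dyes, the mean log2 difference running from 0.10 (*Fcgr4*) to 0.64 (*Fcgr1*), with a median of 0.48 beside -0.01 over all genes. None was called higher by the limits, where 8.53% of 15460 genes were, and *Fcgr4*, at 0.00 with Cy3, turned below 0 in some settings. P7 was the lowest of the 8 pools for 6 genes, the exceptions being *Fcgr4* (P35) and *Syk* (10 weeks). Later differences between controls went both ways, with a median of 0.03 from P14 to P35 and -0.10 from P35 to 10 weeks. From P14 to P35 *Fcgr3* was higher by 0.30 ± 0.22 and *Syk* lower (-0.25 ± 0.02). From P35 to 10 weeks *Fcgr4* was higher by 0.48 ± 0.05, and none of these was called. The microglia markers listed below were lower at P7 as well, with a summed level of 31.0 to 31.4 times the reference signal against 57.0 to 58.5 at P14.

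**Figure D3:**
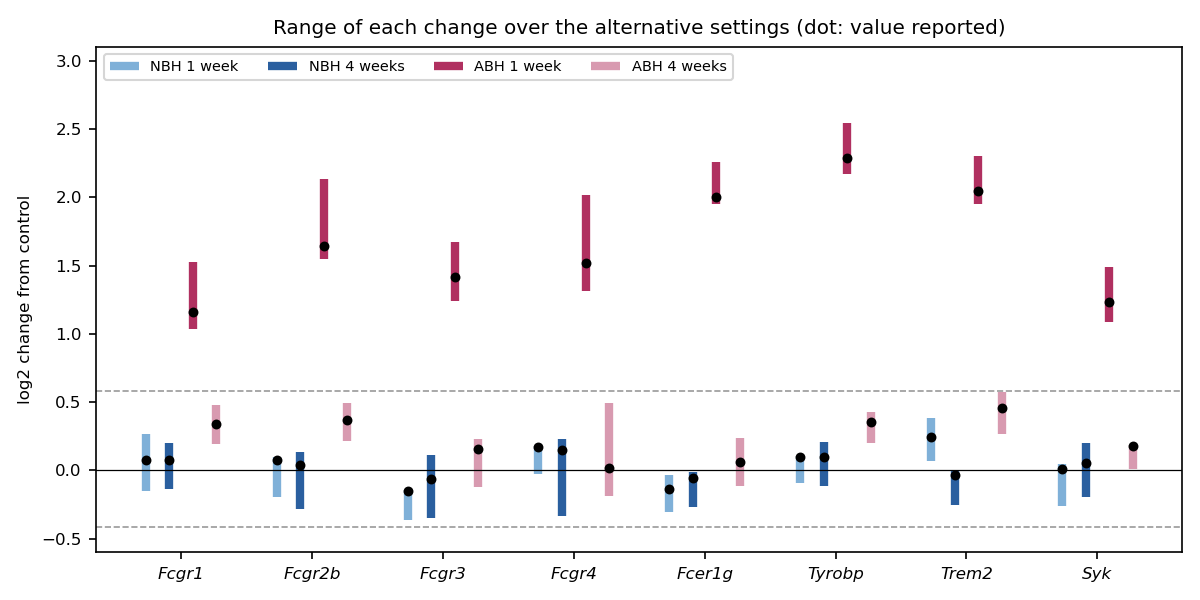
Lowest to highest log2 change of each gene over the alternative settings (vertical lines) in the 4 comparisons with controls, and the value reported (dots); dashed lines mark the limits of 1.5-fold and 0.75-fold. All ABH 1 week ranges lie above the upper limit, the lowest value being 1.04 for *Fcgr1*, and all other ranges lie between the limits.

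The size of the change depended on the background correction for the dim probes. An offset of 50 intensity units was added to all signals, which shrinks fold changes near the background. With no offset the ABH 1 week change was 1.30 for *Fcgr1* in place of 1.16, 1.90 for *Fcgr2b* in place of 1.64, and 1.76 for *Fcgr4* in place of 1.52. The bright probes hardly moved, with 2.29 for *Tyrobp*, 2.05 for *Trem2* and 2.01 for *Fcer1g*. With the processed signal of the scanner software *Fcgr2b* changed by 2.03, as much as *Fcer1g* (2.02), so the order of the 8 genes by fold change is not firm.

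Lists of genes that act with these receptors were followed in the same comparisons. Of 125 listed genes 116 were named on the array, and 92 were compared in ABH 1 week, of which 32 were called higher and 7 lower, with a median change of 0.31 beside -0.07 over all genes. The count of higher genes was between 19 (with 2-fold limits) and 41 in the alternative settings, while that of lower genes fell to 1 with median scaling and to 2 with quantile normalization. For dim probes the authors' unscaled values gave larger changes than those printed below, for example 1.78 for *Lyn*, 1.84 for *Btk*, 2.78 for *Sirpb1a* and 2.76 for *Pirb*. In ABH 4 weeks and NBH 4 weeks none was called. In NBH 1 week 2 were higher and 2 lower.

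Among other Fc receptors, 2 of 8 genes compared were higher in ABH 1 week and 2 lower. *Fcrls*, an Fc receptor-like gene of microglia, changed by 1.57 ± 0.005, and *Trim21*, the antibody receptor of the cytosol, by 0.71 ± 0.02. *Fcer2a*, the low-affinity IgE receptor of B cells, changed by -0.68 ± 0.11 and *Fcmr*, the IgM receptor, by -0.55 ± 0.13, both calls being lost in some settings. *Fcgrt*, the neonatal Fc receptor that recycles IgG, was at 0.57 ± 0.01 and was not called. The list of antibody and TREM2 ligands held 15 genes, of which 7 were named on the array. No antibody gene was among these 7, so the antibodies that Fc receptors bind were not measured. Of the 6 genes compared 4 were higher. They were *C1qa* (2.11 ± 0.02), *C1qb* (1.95 ± 0.01) and *C1qc* (1.99 ± 0.04), the chains of a complement protein that itself binds antibodies, and *Apoc1* (2.33 ± 0.01), an apolipoprotein. *Apoe* and *Clu* were saturated in both pools and gave no fold change.

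The receptors that share the adaptors were mixed, with 4 of 12 higher and 1 lower. *Clec4d*, a C-type lectin that pairs with *Fcer1g*, was not well above background in the control and rose at least 8.08-fold. *Sirpb1a*, a receptor that pairs with *Tyrobp*, rose at least 2.52-fold, *Itgb2*, the integrin beta chain of leukocytes, by 1.21 ± 0.19 and *Clec4n*, a lectin for fungal sugars, by 0.87 ± 0.04. *Oscar* changed by -0.52 ± 0.14, a call lost in 6 of 13 settings. Of 4 other signaling chains compared, *Cd79b* of the B cell receptor (1.01 ± 0.13) and *Hcst*, an adaptor related to *Tyrobp* that carries another motif (0.99 ± 0.25), were higher. *Cd79a*, the partner of *Cd79b*, was lower (-0.52), a call lost in 5 of 13 settings.

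Upstream of *Syk*, the Src family kinases phosphorylate ITAMs. Of 9 kinases compared 2 were higher, among them *Lyn* (0.90 ± 0.06), and *Blk* was at least 1.51-fold lower, a bound that lost its call in 5 of 13 settings. Downstream of *Syk*, 8 of 25 genes were higher and 2 lower. The largest increases were those of *Rac2*, a GTPase of blood cells (1.68 ± 0.12), *Vav1*, its exchange factor (1.52 ± 0.0047), the phospholipase *Plcg2* (1.32 ± 0.04) and the adaptor *Lat2* (1.25 ± 0.19). *Btk*, a Tec family kinase, changed by 1.20 ± 0.52. *Gab3* (-0.77) and *Pik3ap1* (-0.95) were lower, with the calls lost in 4 and 5 of 13 settings. Other probes of *Btk*, *Gab3*, *Tec* and *Prkcd* did not pass the limit, the last 2 being genes called higher and named after their values were seen.

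Of 20 inhibitory receptors and phosphatases 6 were called higher, 0 lower and 14 in neither direction, with a median of 0.33. Among the 14 was *Cd300lf* (0.59 ± 0.40), named after its values were seen. Its other probes were called higher, at least 4.31-fold and 5.46-fold. *Lilrb4a*, a receptor with inhibitory motifs on myeloid cells, went from -3.49 to 0.94, a 21.4-fold rise (4.42 ± 0.08) from a dim control level. The size is uncertain, since its other probe gave at least 4.71-fold and the log2 change ran from 3.33 to 5.90 over the settings. *Pirb*, a related receptor, rose 4.07-fold (2.03 ± 0.10), as did *Ptpn6*, the phosphatase recruited by inhibitory motifs (2.03 ± 0.18). *Cd72* (1.16 ± 0.11) and *Inpp5d*, the lipid phosphatase that acts behind *Fcgr2b* (1.01 ± 0.02), followed. Of 8 myeloid transcription factors 4 were higher, among them *Irf8* (1.61 ± 0.14), *Cebpa* (0.94) and *Irf5* (0.76). *Spi1*, which encodes PU.1, had a change of 0.11 ± 0.06 at a dim probe and was not called.

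**Figure D4:**
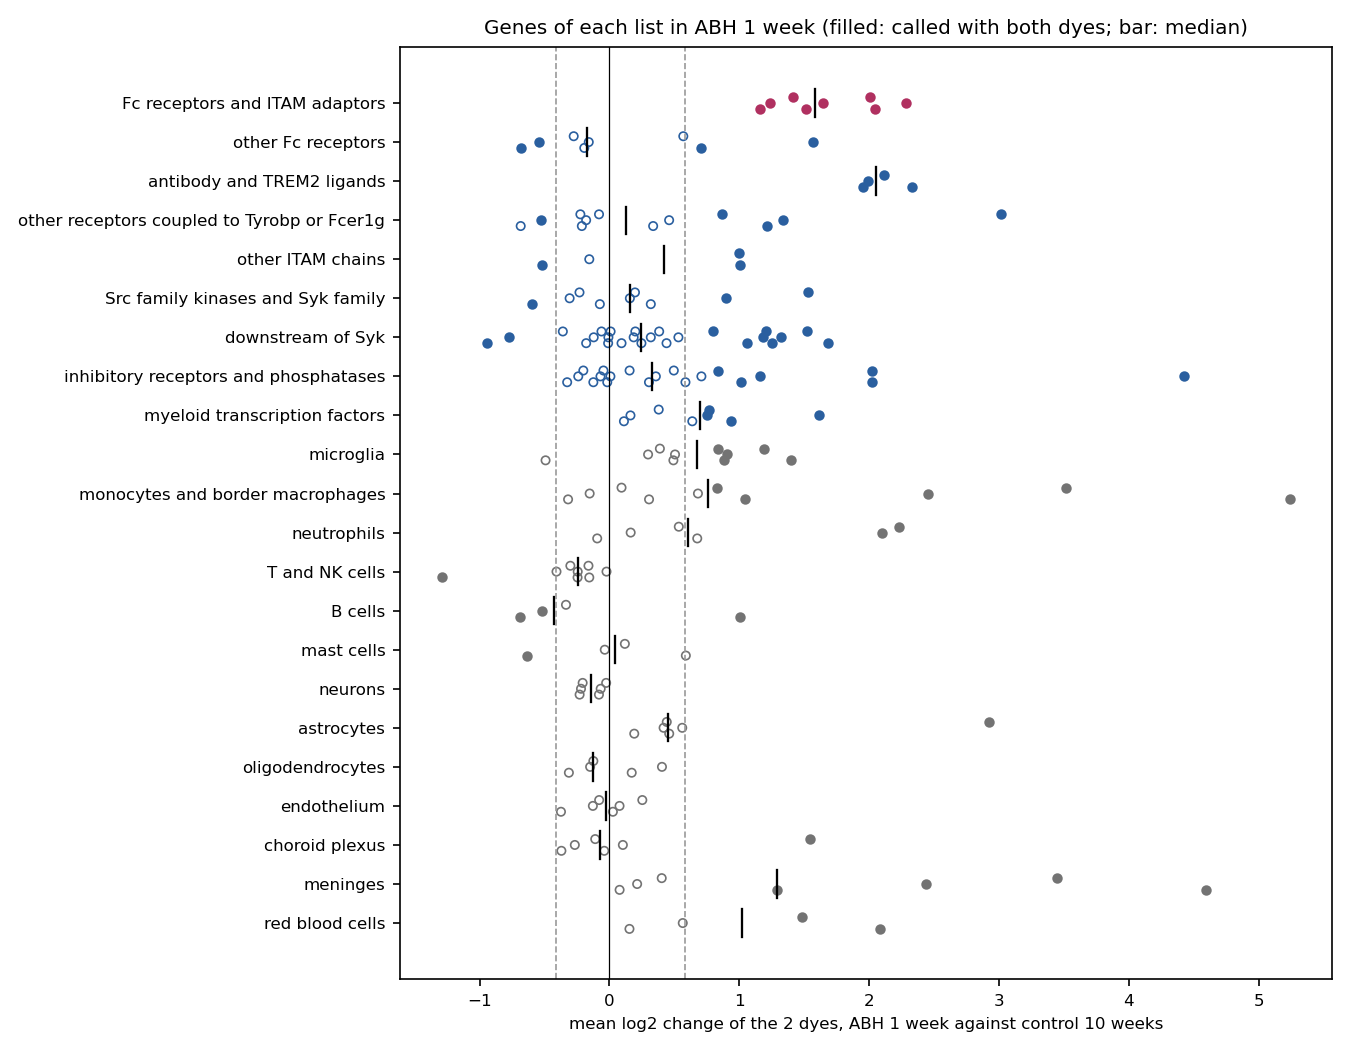
Mean log2 change of the 2 dyes in ABH 1 week against the 10 weeks control (x axis) for the genes compared in each list (rows); filled points were called with both dyes, open points were not, black bars are list medians and dashed lines the limits. Genes not well above background in 1 of the pools are drawn at their bound and genes saturated in both are left out. The 8 genes of the top row, all called, lie between 1.16 and 2.28.

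In NBH 1 week the called pathway genes were *Lat*, an adaptor of T cells (at least 2.03-fold higher), *Btk* (0.69 ± 0.04), *Cd3e*, a chain of the T cell receptor (-0.43 ± 0.02), and *Csk*, the kinase that restrains Src family kinases (-1.22 ± 1.04). Each of these calls was lost in at least 1 alternative setting. In ABH 4 weeks the values of largest size included 0.45 ± 0.14 for *Cd72* and -0.61 ± 0.73 for *Pik3ap1*, and none of the 32 genes called higher at 1 week was called.

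Markers of microglia moved in the same pool. Of 10 markers 5 were higher in ABH 1 week, among them *Aif1* (1.40), *Cx3cr1* (0.90), *Gpr34* (0.89) and *Csf1r* (0.84, but 0.02 at another of its probes), and the list had a median of 0.67. *P2ry13* (0.50), *P2ry12* (0.49), *Tmem119* (0.39) and *Sall1* (0.30) were not called. *Olfml3* was at -0.49, whereas its other probe was called higher (1.30). The summed level of the list was 91.5 to 93.5 times the reference signal in ABH 1 week and 56.5 to 58.4 in the 10 weeks control. Of the 8 Fc receptor and ITAM genes, *Fcgr1* and *Syk* changed by less than the highest microglia marker, *Aif1* (1.40 ± 0.04). *Fcgr3* (1.42 ± 0.06) and *Fcgr4* (1.52 ± 0.29) could not be told from *Aif1*. *Fcgr2b*, *Fcer1g*, *Tyrobp* and *Trem2* had larger mean changes.

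Some markers of monocytes and border macrophages also moved. In ABH 1 week 5 of 10 were called higher: *Lyz2* (5.24 ± 0.10), *Ms4a7* (3.52 ± 0.13), *F13a1* (2.45 ± 0.04), *Chil3* (1.05 ± 0.10) and *Cd14* (0.83 ± 0.03). *Mrc1* (0.68 ± 0.29), *Cd209f* (0.30 ± 0.20), *Ccr2* (0.09 ± 1.08), *Lyve1* (-0.15 ± 0.14) and *Plac8* (-0.32 ± 0.06) were not called, and *Cd163* was not well above background in any pool. The probes of a pair of these genes disagreed, since the other *Plac8* probe was called higher (0.94 ± 0.15) and the other *F13a1* probe, which did not pass the background filter, gave -0.26 ± 0.40. The list median was 0.75, and the summed level of the list was 12.4 to 12.6 in ABH 1 week and between 2.03 and 2.58 in all other pools. Of 7 neutrophil markers 2 were higher, *S100a8* (2.23 ± 0.08) and *S100a9* (2.10 ± 0.04). The summed level of that list was 47.6 to 51.2 against 46.9 to 55.4 in the control. The saturated *Csf3r* makes up most of it, so the sum could not show changes of the dimmer markers. Of the 9 listed genes 4 were not well above background on either array of the control, and 1 in ABH 1 week (*Cxcr2*). Higher were also 4 of 7 markers of meninges, all of them genes of the extracellular matrix, led by *Col1a1* (4.60) and *Col1a2* (3.45). The others, *Aldh1a2* (0.40), *Igf2* (0.21) and *Slc6a13* (0.08), named after their values were seen, were not called. The summed level of the list was 53.1 to 53.7 against 8.42 in the control. The 2 bright collagen genes weigh most in that sum. Of 5 red cell genes 2 were called higher, *Alas2* (2.09) and *Hbb-bt* (1.48), and of 6 astrocyte genes 1, *Gfap* (2.93). The part of these cells and of the meninges in the changes of the 8 genes was not tested. Choroid plexus markers took another course, with 7 of 8 called higher in NBH 1 week, 4 of 8 in NBH 4 weeks and 8 of 8 in ABH 4 weeks, the pools in which none of the 8 genes was called. In ABH 1 week 1 of the 6 markers compared was called higher, *Aqp1* (1.55 ± 0.40).

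The 5 genes whose levels over the 8 pools most resembled the mean profile of the 8 genes, out of 16757 candidates, were *Mpeg1*, *Tor3a*, *Aif1*, *Gsdmd* and *Slc11a1*, each with Pearson's r = 0.99. The pools share 1 slide for each dye, and the ABH 1 week pool carries most of the variation. Without it, over 7 pools, r was 0.95, 0.94, 0.96, 0.92 and 0.90. Among the 8 genes themselves r was between 0.83 (*Fcgr3* and *Syk*) and 0.99 over 8 pools. *Fcgr2b* and *Trem2* were most like each other (0.99), as were *Fcer1g* and *Tyrobp* (0.99), *Fcgr3* was nearest to *Fcer1g* (0.98) and *Fcgr1* to *Fcgr2b* (0.97). *Fcgr4* (0.96) and *Syk* (0.94) were nearest to *Tyrobp*. Without the ABH 1 week pool, *Fcgr2b* and *Trem2* still had r = 0.98, while *Fcgr3* and *Syk* had r = -0.32. *Fcgr3* stayed nearest to *Fcer1g* (0.86), and the other nearest genes changed. *Fcer1g* (0.93) and *Tyrobp* (0.97) were then nearest to *Fcgr2b*, *Fcgr1* to *Tyrobp* (0.95), *Fcgr4* to *Trem2* (0.62) and *Syk* to *Fcgr1* (0.56).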

How the data were processed

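RNA from 8 pools of right neocortex was measured on 16 Agilent mouse 8 × 60 K arrays, each pool once with Cy3 and once with Cy5. Scanned images were quantified by the authors with Agilent Feature Extraction 11.0.1.1. As deposited, the tables give for each spot the intensity in arbitrary units (median signal and median local background) and a processed signal with the background subtracted. Its processed signals of the labeled channel, unscaled between arrays, also make up the series' value table. How precise a value is depends on how far its signal exceeds the background.

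From the deposited median intensity, the background was corrected with normexp (offset 50) in limma 3.58.1 (R 4.3.3, with version 1.17.8 of the package for reading tables), and outlier spots, between 140 and 237 per array, and control spots were dropped. Values were taken to log2 after division by the 75th percentile of the array, with numpy 2.4.6 and pandas 2.3.3 in Python 3.11.15. Spots of a probe were averaged, and a gene with several probes was represented by that of the highest mean signal. Probes were named through RefSeq accessions (GRCm38.p6). Each NBH pool was set against the control of its age and each ABH pool against the 10 weeks control, within each dye. A gene entered when well above background on both arrays of 1 pool. A dim pool was held at the lowest signal well above background on its array, and the fold is then a bound. The calls use the fold limits that the methods give for the RT-PCR figures, in place of the p-value limit given there for the arrays, and the call rule was tested on simulated data.

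The 8 genes and all lists were chosen with earlier results of these data known. Named are the 8 genes, in each pathway list up to 5 called genes or else the gene of largest change, all microglia and monocyte markers, up to 3 called genes of other marker lists, and the 5 genes of most similar profile. Alternatives were the processed signal, the unscaled value table, quantile and median scaling, no offset, other background filters, 2-fold limits, 1 dye alone, another control pool, all probes of a gene and, added later, no scaling. Protein sequences were not used here, and the values of 3 genes of the lists are not reported here.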

Additional observations from a re-analysis of the deposited data

Results flagged for a closer look

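For *Fcgr3* and *Fcer1g* both dyes moved below the control in NBH 1 week and above it in ABH 1 week. The ABH change exceeded the NBH change by 1.57 for *Fcgr3* and by 2.14 for *Fcer1g* on the log2 scale. At 4 weeks the same opposition was seen for *Fcgr3*, with a difference of 0.22, and for *Trem2*, with 0.49. These differences were not tested, since each group is 1 pool, and the NBH values and both values at 4 weeks were under the limits. The methods give a larger aspirated area for ABH than for NBH. The ABH pools were also older than their control, whereas the NBH pools had controls of their own age. Age at surgery, extent of suction and match of the control cannot be told apart here.

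The channel without labeled RNA was well above background at the *Fcgr1* probe on 1 array (NBH 1 week, Cy5) and at the *Syk* probe on 1 array (control P7, Cy5). On these arrays the labeled channel gave the higher of the 2 dye values of its pool for both genes. Whether the unlabeled signal is part of it was not tested.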

How the results depend on the processing

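All 8 genes were called higher in ABH 1 week, and none was called in NBH 1 week, NBH 4 weeks or ABH 4 weeks, under every alternative run. With the authors' unscaled values 12 pathway genes were called lower in NBH 4 weeks, against 0 as reported, but there the median of all genes was also lowered, to -0.205 from 0.04. Median scaling moved the median of all genes in ABH 1 week from -0.07 to 0.18. The number of the 8 genes called higher at P14 against P7, 0 as reported, was 2 with the processed signal, 1 with the unscaled value table, 2 with an offset of 0, and between 1 and 2 with 1 dye alone, *Fcgr1* and *Fcgr2b* being nearest to the limit. *Cd8a*, called lower in ABH 1 week, stood at 0.072 against the P35 control. The comparison of ABH 4 weeks with ABH 1 week kept 7 of its 8 calls with 2-fold limits (not *Fcgr1*) and all 8 otherwise. Each pool was already paired with its control within each dye, and with 1 RNA pool per group no pairing by animal was possible. The mean signal was not run, since the tables used here hold the median, and NBH 1 week has no other control of near age. With 1 pool per group and position tied to surgery, all values describe these pools.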
